A study of Rattus norvegicus with 6 samples.

Results

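The mitosis and spindle genes are 40 genes whose products carry a cell through division: mitotic cyclins and kinases, the chromosomal passenger complex, the spindle checkpoint, the anaphase machinery, kinetochore proteins, spindle motors, cytokinesis proteins and a few nuclear proteins and transcription factors of dividing cells. They were chosen by gene symbol, with no measured value in the rule, and all 40 were found among the 26195 named rows of the count table. Of the 40, 39 had enough reads to be tested. The exception was Foxm1, a transcription factor of the G2 phase, with 2, 1 and 3 reads in older tumors 102, 107 and 116 and 5, 4 and 5 reads in younger tumors 157, 158 and 167.

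Bulk RNA-seq was available for 6 mammary tumors of F344 rats, 3 from older and 3 from younger animals, with 1 library per tumor. The older rats were bought at 19 to 21 months of age and received DMBA at 21 to 23 months, and the younger rats were bought at 6 to 8 weeks and received it at 4 months. DMBA is a carcinogen, gavaged at 65 mg per kg. Each animal also carried a pellet of 50 mg of the progestin MPA that releases over 90 days, so neither group holds tumors of untreated animals. The paper states that aged F344 rats also form fibroepithelial lesions spontaneously, and that younger rats do not. It counts 3 carcinomas in its younger rats, which formed only 3 tumors. The labels do not give the histology of each tumor, which leaves that of the 3 older tumors open. The younger tumors were all that had formed in that group and the older ones were picked for sufficient tissue, and the 2 age groups came from different suppliers, so age and source cannot be told apart. Levels are given as CPM, the read count over the library's total after TMM scaling on the usual CPM scale, and p-values measure the spread between these tumors. A 2-sided exact permutation test of 3 tumors against 3 cannot give a p below 0.1 for a single value, so age was tested with edgeR's quasi-likelihood model over all 13139 genes that passed its filter on low counts.

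Genes of this kind are switched on late in the cell cycle. Cyclins A and B with Cdk1 start mitosis, Aurora and Polo kinases build the spindle, the checkpoint holds anaphase until every chromosome is attached, and the anaphase-promoting complex with Cdc20 then marks securin and cyclin B for destruction. Most of these genes are transcribed together in G2 and M, under the MuvB complex with B-Myb and FoxM1, which reads a short promoter element called the cell cycle genes homology region (CHR), often beside a CCAAT box that binds NF-Y. Because only dividing cells make these transcripts, their summed level in a tumor is commonly read as an index of proliferation. In bulk tissue, fewer dividing cells and less of each transcript per cell cannot be told apart.

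The shared promoter element is shown first, since the rule for choosing the genes did not use it. Promoter sequences from 250 bases before to 50 bases after the annotated start were taken from RefSeq (build GRCr8) and matched 33 of the 40 genes by symbol. The windows below run from 90 bases before to 20 bases after the start, 5′ to 3′ on the gene's own strand, with CHR forms (TTTGAA or TTCGAA, either strand) and CCAAT boxes (CCAAT, either strand) in capitals. Cdk1, Ccnb2, Cdc20, Plk1 and Top2a are shown as core mitotic genes with the element, Anln as the gene with the largest difference between the age groups, and Melk and Aurka as the genes with the largest and the smallest difference between tumor 102 and the other older tumors, neither of which had a CHR form in its window.
Cdk1, chr20:19265203-19265312, plus strand: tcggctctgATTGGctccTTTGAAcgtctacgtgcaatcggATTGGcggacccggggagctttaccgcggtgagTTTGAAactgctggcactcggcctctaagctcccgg
Ccnb2, chr8:79981639-79981748, minus strand: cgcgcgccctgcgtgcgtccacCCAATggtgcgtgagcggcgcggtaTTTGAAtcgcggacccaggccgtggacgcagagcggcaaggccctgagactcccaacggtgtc
Cdc20, chr5:137255780-137255889, minus strand: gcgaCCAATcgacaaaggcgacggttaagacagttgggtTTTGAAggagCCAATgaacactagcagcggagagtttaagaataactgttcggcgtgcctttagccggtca
Plk1, chr1:186147568-186147677, plus strand: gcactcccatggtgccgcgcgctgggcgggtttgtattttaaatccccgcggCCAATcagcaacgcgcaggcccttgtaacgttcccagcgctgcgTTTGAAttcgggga
Top2a, chr10:84473074-84473183, minus strand: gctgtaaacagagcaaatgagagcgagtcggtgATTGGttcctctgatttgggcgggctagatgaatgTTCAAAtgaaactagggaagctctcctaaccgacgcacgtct
Anln, chr8:29197494-29197603, minus strand: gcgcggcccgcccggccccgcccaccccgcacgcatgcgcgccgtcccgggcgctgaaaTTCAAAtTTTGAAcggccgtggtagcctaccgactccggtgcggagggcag
Melk, chr5:63336061-63336170, plus strand: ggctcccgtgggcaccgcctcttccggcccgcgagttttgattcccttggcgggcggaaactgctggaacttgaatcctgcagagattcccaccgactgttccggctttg
Aurka, chr3:181560750-181560859, minus strand: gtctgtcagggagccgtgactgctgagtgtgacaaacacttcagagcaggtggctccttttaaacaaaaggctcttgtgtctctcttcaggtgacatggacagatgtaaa

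A CHR form was present in 24 of the 33 promoters (72.7%), against 5359 of all 27457 promoters of the same length (19.5%) and 1400 of the 10214 promoters of genes tested here (13.7%). In 23 of the 33 (69.7%) it began no more than 100 bases before the start, where 8.68% of all promoters had one. CCAAT boxes were in 22 of the 33 (66.7%) and in 37.7% of all promoters, and 18 promoters (54.5%) held both elements, against 7.83% of all. The E2F motifs (TTCCCGC or TTGGCGC, either strand), known from genes of DNA replication, were in 4 of the 33 (12.1%), in 6.67% of all promoters and in 11.9% of the promoters of genes tested here. A list of 44 S phase genes had E2F motifs in 22 of 37 promoters (59.5%) and CHR forms in 8 of 37 (21.6%), and CCAAT boxes in 22 of 37 (59.5%). A further list of 92 mitosis genes lay closer to the members, with a CHR form in 52 of 82 promoters (63.4%). In Cdk1 the CHR form nearest the start began 16 bases before it and in Ccnb2 43 bases before it, and Anln held a pair of CHR forms on opposite strands that began 31 and 24 bases before the start. These matches describe letters in a window and do not show binding.

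**Figure D1:**
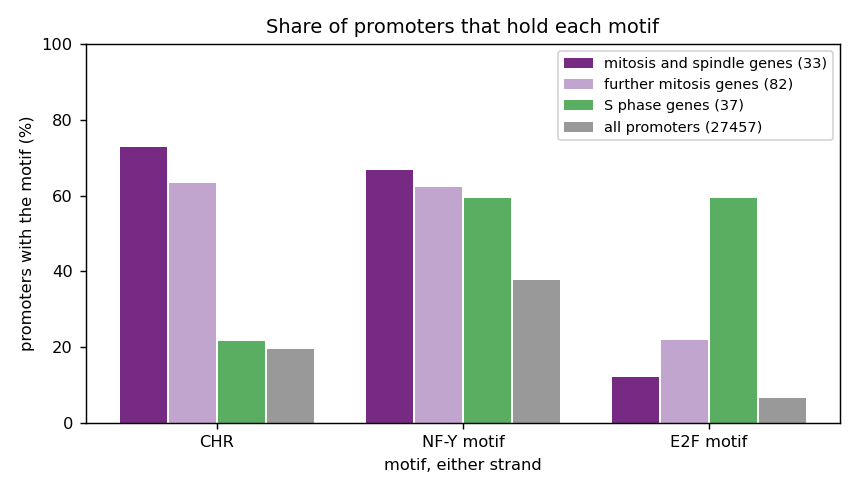
Bars give the share of promoters in percent (y axis, from 0) that hold a CHR form, an NF-Y motif (the CCAAT box) or an E2F motif on either strand, for the mitosis and spindle genes, further mitosis genes, S phase genes and all RefSeq promoters, with the number of promoters in the legend. The CHR bar of the mitosis and spindle genes stands at 72.7% and that of all promoters at 19.5%, while the E2F bar is tallest for S phase genes at 59.5%.

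Reads on the 40 genes made up 0.0424% of the counts in tumor 102, 0.167% in tumor 107 and 0.286% in tumor 116, and 0.327%, 0.157% and 0.233% in tumors 157, 158 and 167. Tumor 102 lay below the rest and the other older tumors lay inside the younger range. The library totals over named genes ran from 3394450 counts in tumor 102 to 6383980 in tumor 158, so that 3 counts, taken as the floor, correspond to between 0.528 and 1.03 CPM, which covers counting error only. Between 2.17% and 3.64% of counts fell on rows without a gene name and were left out.

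Mki67 encodes the antigen Ki-67, which coats mitotic chromosomes and is the usual histological marker of dividing cells. Its level was 72.7, 363 and 462 CPM in older tumors 102, 107 and 116 and 571, 384 and 332 CPM in younger tumors 157, 158 and 167. The groups overlapped, at 299 ± 202 CPM (SD, n = 3) in older and 429 ± 126 CPM (SD, n = 3) in younger tumors. Top2a, the topoisomerase that untangles sister chromosomes, had 25.7, 181 and 198 CPM in older and 232, 139 and 149 CPM in younger tumors. For both genes tumor 102 was lowest and tumor 157 highest.

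Among the cyclins and Cdk1, the kinase that drives entry into mitosis, the order of the tumors was much the same. Cdk1 stood at 7.54, 30.1 and 58.4 CPM in older tumors 102, 107 and 116 and at 57.2, 36.0 and 52.6 CPM in younger tumors 157, 158 and 167. Ccnb1, cyclin B1, was at 5.83, 37.3 and 56.0 CPM in older and 68.1, 32.2 and 40.5 CPM in younger tumors. Cyclin A2 (Ccna2), which acts from S phase on, varied less, with 42.8, 60.2 and 105 CPM in older and 97.3, 68.8 and 101 CPM in younger tumors. Ccnb1 in tumor 102 was 0.125 times the mean of tumors 107 and 116, and Ccna2 0.517 times. Ccnb2, cyclin B2, was at 7.198 CPM in tumor 102 and between 23.5 and 50.3 CPM in the other tumors.

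The mitotic kinases held the member with the lowest and the member with the highest level in tumor 102 relative to tumors 107 and 116, Melk and Aurka. Melk, a kinase of dividing and progenitor cells, had 0.686, 22.2 and 27.5 CPM in older tumors 102, 107 and 116, where the first value is 2 reads and lies under the floor, and 32.4, 18.5 and 22.8 CPM in younger tumors. Plk1, Polo-like kinase 1, had 4.46, 30.8 and 38.1 CPM in older and 61.4, 27.2 and 24.6 CPM in younger tumors. Aurka, Aurora kinase A of the spindle poles, had 18.2, 24.9 and 32.7 CPM in older and 39.4, 27.0 and 16.5 CPM in younger tumors. It was the single member of the 39 that was not lowest in tumor 102, its lowest level being in younger tumor 167. Its annotated body overlaps Fam210b on the other strand, and the strand setting of the counting is not given in the sources used here.

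The chromosomal passenger complex corrects faulty attachments and later marks the cleavage site. Its kinase Aurkb was at 13.0, 25.1 and 38.1 CPM in older tumors 102, 107 and 116 and at 45.6, 27.4 and 37.8 CPM in younger tumors 157, 158 and 167. Its scaffold Incenp was at 42.5, 65.9 and 87.5 CPM in older and 118, 121 and 50.9 CPM in younger tumors. Both were higher in tumors 107 and 116 than in 102, and Incenp was the single member that was highest in tumor 158. The smaller subunits Birc5 (survivin) and Cdca8 (borealin) had 2.06 and 4.80 CPM in tumor 102, 6 and 14 reads, and reached 16.2 and 31.0 CPM in tumor 157.

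Spindle checkpoint genes encode the kinases and sensors that delay anaphase. Bub1 had 14.7, 41.0 and 76.8 CPM in older tumors 102, 107 and 116 and 84.3, 38.0 and 69.8 CPM in younger tumors 157, 158 and 167. Bub1b, which encodes BubR1, had 10.97, 34.2 and 48.7 CPM in older and 56.7, 33.0 and 36.6 CPM in younger tumors. Ttk, the kinase Mps1 that starts checkpoint signalling, had 4.46, 38.0 and 54.8 CPM in older and 46.7, 22.3 and 41.8 CPM in younger tumors. In all 3 genes tumor 158 had the lowest level of the younger tumors, and Ttk and Mad2l1, another checkpoint gene, were highest in older tumor 116.

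Genes of anaphase onset were each lowest in tumor 102 and highest in tumor 157. Ube2c, the ubiquitin-conjugating enzyme of the anaphase-promoting complex, had 2.40, 19.5 and 25.7 CPM in older tumors 102, 107 and 116 and 34.3, 19.8 and 25.1 CPM in younger tumors 157, 158 and 167. Espl1, separase, the protease that opens cohesin, had 7.198, 29.4 and 36.9 CPM in older and 62.8, 35.3 and 28.0 CPM in younger tumors. Pttg1, securin, the inhibitor of separase, had 1.03, 10.9 and 18.1 CPM in older and 19.7, 10.8 and 14.7 CPM in younger tumors. The value of Pttg1 in tumor 102 is 3 reads, which is the floor. Cdc20, the activator of the anaphase-promoting complex, was at 4.80 CPM in tumor 102 and between 14.01 and 36.6 CPM in the other tumors.

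Centromere and kinetochore genes link chromosomes to spindle fibres. Cenpa, the histone H3 variant that marks centromeres, had the smallest range of all members, with 28.1, 41.9 and 48.5 CPM in older tumors 102, 107 and 116 and 59.5, 36.7 and 49.9 CPM in younger tumors 157, 158 and 167. Cenpe, a kinetochore motor, had 7.54, 41.0 and 77.2 CPM in older and 78.7, 45.2 and 60.0 CPM in younger tumors. Cenpf, a large protein of the outer kinetochore, had 14.1, 54.3 and 100.3 CPM in older and 86.3, 47.6 and 92.4 CPM in younger tumors. So over the 6 tumors Cenpa spanned 2.12-fold, Cenpf 7.14-fold and Cenpe 10.4-fold. The microtubule-binding Ndc80 complex was represented by Ndc80, Nuf2 and Spc25, each lowest in tumor 102, at 9.26, 3.43 and 2.40 CPM, and highest in older tumor 116, at 34.1, 24.9 and 16.9 CPM.

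Spindle motors and assembly factors build and shape the spindle. Kif11, the motor Eg5 that pushes the spindle poles apart, had 18.2, 48.0 and 85.7 CPM in older tumors 102, 107 and 116 and 84.0, 45.7 and 77.9 CPM in younger tumors 157, 158 and 167. Tpx2, which activates Aurora A on the spindle, had 10.6, 71.3 and 75.0 CPM in older and 114, 68.8 and 59.7 CPM in younger tumors. Kif2c, a kinesin that shortens microtubules, had 10.6, 10.9 and 28.9 CPM in older and 40.7, 26.1 and 22.8 CPM in younger tumors. Kif2c was the member in which tumor 107 lay as low as tumor 102. Nusap1, a microtubule-bundling protein, was at 6.86 CPM in tumor 102 and reached 79.4 CPM in tumor 167.

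Central spindle and cytokinesis genes act as the cell splits. Anln encodes anillin, the scaffold of the contractile ring, and had 10.6, 40.1 and 53.4 CPM in older tumors 102, 107 and 116 and 127, 59.6 and 81.1 CPM in younger tumors 157, 158 and 167, so that every older tumor lay below every younger one. Ect2, the exchange factor that activates RhoA at the cleavage site, had 9.94, 56.1 and 104 CPM in older and 104, 63.8 and 123 CPM in younger tumors. Cep55, an abscission protein, had 1.37, 16.1 and 24.5 CPM in older and 22.4, 19.99 and 18.2 CPM in younger tumors, the first value resting on 4 reads. Kif20a, a kinesin of the central spindle, varied little, with 21.3, 32.8 and 50.2 CPM in older and 52.3, 38.0 and 36.6 CPM in younger tumors. Prc1, which bundles the central spindle, ran from 13.4 CPM in tumor 102 to 73.4 CPM in tumor 116, and Kif23 and Racgap1, the centralspindlin pair, ran from 13.0 and 8.57 CPM in tumor 102 to 80.1 and 88.4 CPM in tumor 157. The transcription factor Mybl2, B-Myb, had 3.09, 9.73 and 16.9 CPM in older and 23.1, 12.8 and 7.86 CPM in younger tumors.

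**Figure D2:**
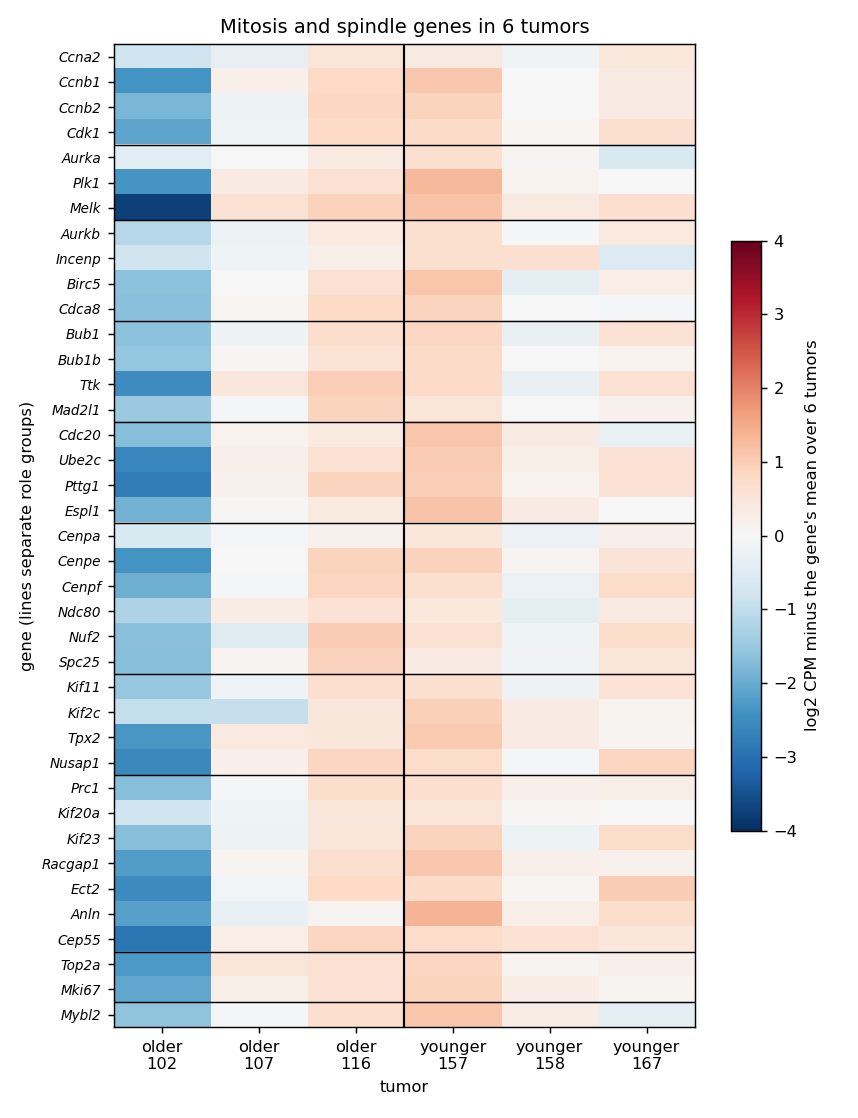
The heat map shows the 39 tested genes (rows, with lines between role groups) in the 6 tumors (columns) as log2 CPM minus the gene's mean over the 6 tumors, with blue for lower and red for higher. The column of tumor 102 is blue in every role group, and Aurka is the single gene whose lowest value is elsewhere, in tumor 167.

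Across the 39 tested genes tumor 102 was the lowest of the 6 tumors in 38 (97.4%), where it was lowest for 27.3% of all genes tested. The highest tumor was 157 in 25 genes, 116 in 11, 167 in 2 and 158 in 1. The level in tumor 102 was a median of 0.207 times the mean of tumors 107 and 116, and over all genes tested the median was 0.976. All members together had 1439 reads in tumor 102 and 20423 in tumors 107 and 116, a level 4.39-fold lower (95% exact interval 4.16 to 4.63, counting error only). This describes 1 tumor against 2 others and has no replicate check of its own.

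The size of that difference varied between members by more than counting error. Melk was 36.5-fold lower in tumor 102 than in tumors 107 and 116 together, with a wide exact interval of 9.99 to 303 from its 2 reads. Ttk, with 13 reads, was 10.5-fold lower (6.10 to 19.96) and Nusap1, with 20 reads, 9.57-fold lower (6.14 to 15.8). At the other end Aurka was 1.599-fold lower (1.19 to 2.19), Cenpa 1.61-fold lower (1.27 to 2.07) and Incenp 1.82-fold lower (1.503 to 2.22). The intervals of Kif2c, Ccna2 and Kif20a also lay above 1, at 1.31 to 2.91, 1.63 to 2.39 and 1.51 to 2.63. By role, the median ratio of tumor 102 to the mean of tumors 107 and 116 was lowest for the mitotic kinases at 0.129, followed by Mki67 and Top2a at 0.156 and the anaphase genes at 0.162, and highest for the passenger complex at 0.317. The role groups overlapped widely, the kinases alone running from 0.0276 to 0.631.

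**Figure D3:**
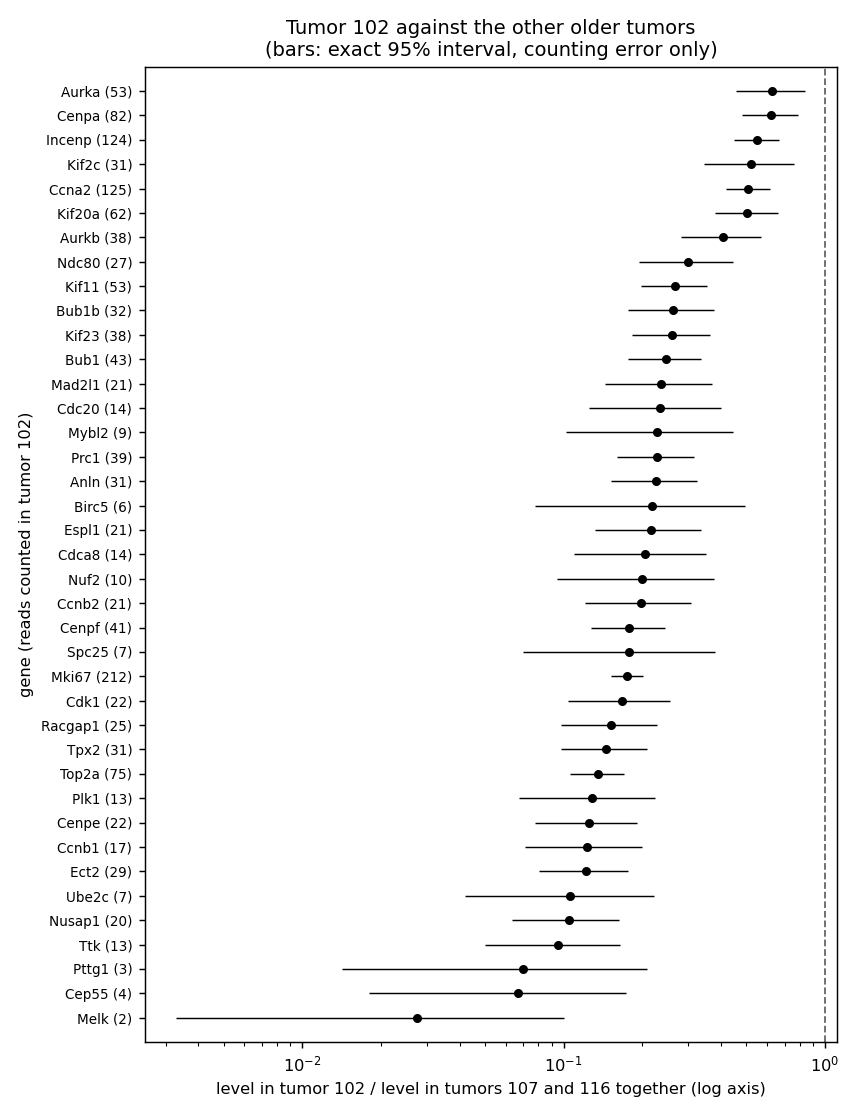
Points give the level of each of the 39 genes in tumor 102 divided by its level in tumors 107 and 116 together (x axis, log scale), with exact 95% intervals that cover counting error only and the reads counted in tumor 102 in parentheses. All 39 intervals lie below the dashed line at 1, which stands for equal levels, from Melk at the bottom with 2 reads to Aurka at the top with 53.

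Members with and without the promoter element, and with and without an overlapping gene, had similar ranges of this ratio. The 24 members with a CHR form in the window had a median ratio of 0.204 and a range of 0.0676 to 0.622, and the 9 matched members without one had a median of 0.250 and a range of 0.0276 to 0.631. In the RefSeq annotation 13 tested members overlap another gene, among them Plk1 (with Ern2), Kif20a (with Cdc23) and Anln (with Matcap2), and their median ratio was 0.217, against 0.205 for the 26 that overlap none. Reads of a gene and its overlapping partner may not be told apart in these counts. Foxm1, which failed the filter, also overlaps a gene, Tex52, and the part of this overlap in its few reads was not tested.

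The age comparison asked whether mitotic genes differed between tumors that arose in older and in younger hosts. None of the 39 passed an adjusted p of 0.05 in edgeR's quasi-likelihood test, and percent called over all 13139 genes was 0. The smallest adjusted p among the members was 0.559, for Anln. In DESeq2's Wald test 0 members were called as well, although it called 326 of all genes. By sign alone the log2 fold change, older against younger, was below 0 in 39 of 39 members and in 50.4% of all genes tested. Its median was −0.52 and its range −1.35 to −0.08, where the median of all genes was −0.0038.

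Anln had the largest difference, at −1.35 on the log2 scale (standard error 0.56, unadjusted p = 0.0433, adjusted p = 0.559, edgeR), from 34.7 ± 21.9 CPM (SD, n = 3) in older to 89.2 ± 34.4 CPM (SD, n = 3) in younger tumors. It was the single member with an unadjusted p under 0.05, 1 of 39 against 3.29% of all genes that were lower at that p. It was also the single member whose groups did not overlap, where 5.58% of all genes had every older tumor below every younger one. Both counts are near the background. Kif2c had the next smallest p, with −0.82 on the log2 scale (standard error 0.47, adjusted p = 0.736), and Incenp followed at −0.56 (standard error 0.40, adjusted p = 0.814). For Mki67 the log2 fold change was −0.52 (standard error 0.61, adjusted p = 0.905), less than its standard error. The members nearest to 0 were Ndc80 at −0.08 (standard error 0.48) and Spc25 at −0.11 (standard error 0.62).

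Without tumor 102 the picture changed. In a refit of the other 5 tumors over 13541 genes, 27 of 39 members had a log2 fold change below 0 and 12 above, against 53.1% of all genes below 0, and the median moved to −0.06, where all genes stood at −0.03. The range was now −0.93 for Anln to 0.33 for Ttk. No member was called and percent called over all genes was 0. Anln kept its side, at −0.93 (standard error 0.37, unadjusted p = 0.0408, adjusted p = 0.644, edgeR), and was the single member with an unadjusted p under 0.05, where 2.75% of all genes were lower at that p. Its groups still did not overlap, and the share of all genes for which this held over the 5 tumors was not calculated. Members that changed sign were Ttk, Spc25, Ndc80, Mad2l1, Cdca8, Top2a, Aurka, Cenpf, Nuf2, Nusap1, Melk and Cep55, at 0.33 to 0.0045. Without tumor 102 the lowest role group medians were those of the anaphase genes, at −0.23, and the passenger complex, at −0.18, while the checkpoint group moved to 0.11 and the kinetochore group to 0.04.

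**Figure D4:**
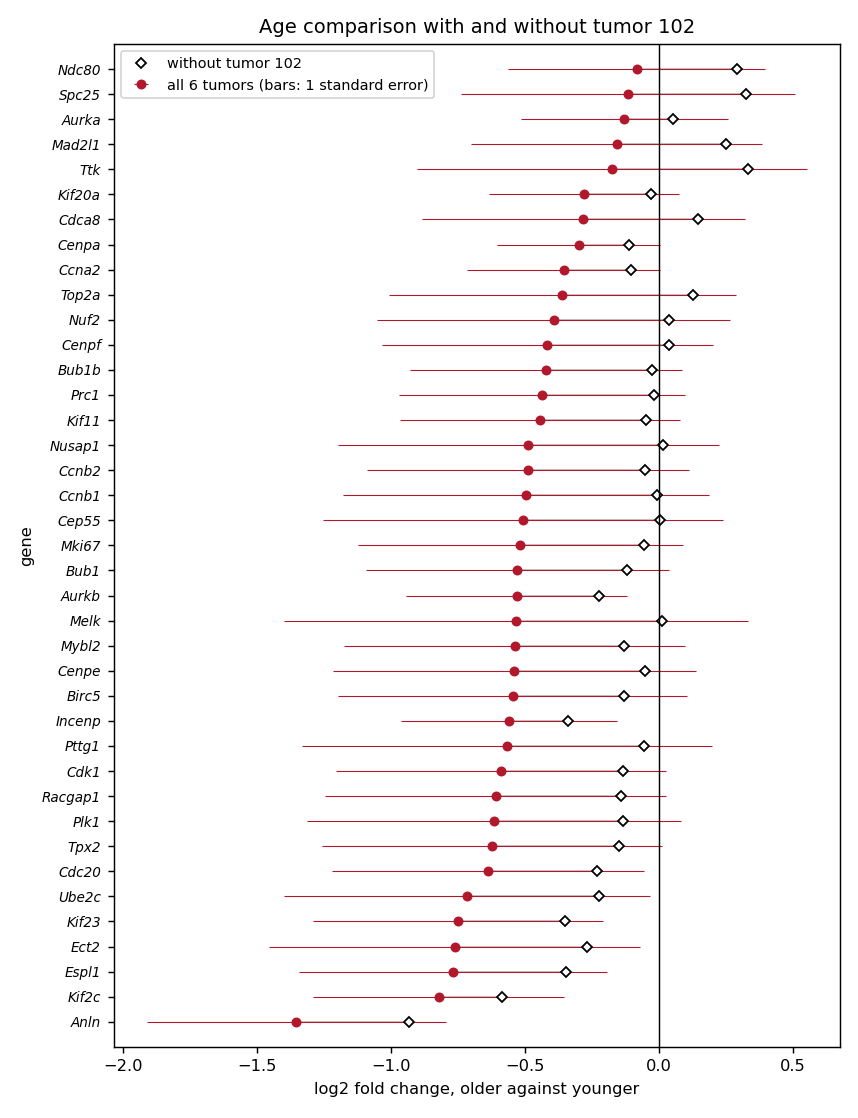
Points give the log2 fold change of each of the 39 genes, older against younger (x axis; below 0 is lower in older tumors), for all 6 tumors with 1 standard error (red) and without tumor 102 (open diamonds). All 39 red points lie left of 0, and 12 of the open diamonds lie right of it, with Anln farthest left in both.

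A mitosis score, the mean log2 CPM of the 39 genes, gave the same account by tumor. It was 3.12, 4.98 and 5.61 in older tumors 102, 107 and 116 and 5.79, 5.03 and 5.28 in younger tumors 157, 158 and 167. Older tumors averaged 4.57 ± 1.30 (SD, n = 3) and younger ones 5.37 ± 0.39 (SD, n = 3), a difference of −0.80, and without tumor 102 the difference was −0.08. Tumor 102 lay 1.86 below tumor 107, the next lowest, and the other 5 tumors spanned 0.81.

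The 39 genes moved together between tumors, as far as 6 points can show. No other gene list was measured in this way, so how far this exceeds other lists was not tested. The median SD of a member's log2 CPM over the 6 tumors was 0.999, and after subtracting the mean of the other members it was 0.34, smaller in 34 of 39 genes. Without tumor 102 these values were 0.43 and 0.23, smaller in 38 of 39. Prc1 and Ccnb2 tracked the other members most closely, with SDs of 0.128 and 0.130 around their mean, and Bub1b was next at 0.166. Melk, Aurka and Incenp tracked them least, at 0.947, 0.777 and 0.720, and without tumor 102 the SD of Melk was 0.136. Over the 5 other tumors the members spanned a median of 1.99-fold, from 1.53-fold for Cep55 to 3.74-fold for Kif2c, and over all 6 a median of 7.47-fold, from 2.12-fold for Cenpa to 47.2-fold for Melk, whose lowest value is 2 reads, so that the exact interval of its fold ran from 12.9 to 393. Among these 5 tumors 107 and 158 were each lowest for 15 members and 167 for 9, and tumors 116 and 157 for 0.

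Other cell cycle genes were examined for comparison, and in edgeR's test 0 genes passed the adjusted threshold in any of these lists. At an unadjusted p under 0.05 there were 0 further mitosis genes, 0 S phase genes, 1 subunit of the anaphase-promoting complex and 2 transcription regulators, and these 3 genes were higher in older tumors, as were 5.3% of all genes at that p. Of 89 tested further mitosis genes, 69 were lower in older tumors by sign, with a median log2 fold change of −0.21, and 75 were lowest in tumor 102. Gtse1, a spindle-associated regulator of G2, was at −1.10 (standard error 0.63) and Cdkn3, a phosphatase that acts on cyclin-dependent kinases, at −0.83 (standard error 0.48). On the other side Spdl1, a kinetochore adaptor for dynein, was at 0.54 (standard error 0.46) and Cks1b, a small Cdk-binding protein, at 0.32 (standard error 0.31). Without tumor 102 this list stood at 41 lower of 89 with a median of 0.01.

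S phase genes shared the low value in tumor 102 but not the sign in the rest. Their mean log2 CPM was 3.30, 4.68 and 5.20 in older tumors 102, 107 and 116 and 4.997, 4.66 and 4.34 in younger tumors 157, 158 and 167, and tumor 102 was lowest for 36 of the 43 tested genes. With all tumors 25 of 43 were lower in older tumors, with a median log2 fold change of −0.03. Without tumor 102, 6 of 43 were lower and 37 higher, with a median of 0.27, beside −0.06 for the mitosis and spindle genes. Rrm2, a subunit of ribonucleotide reductase, was at −0.80 (standard error 0.56) and Ccne1, cyclin E1, at −0.77 (standard error 0.84), and Rfc5, of the clamp loader, was at 0.31 (standard error 0.26) and Gins2, of the replicative helicase, at 0.25 (standard error 0.31), all with 6 tumors.

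The anaphase-promoting complex itself is a ubiquitin ligase whose subunits are present throughout the cycle. Of 13 tested, 6 were lower in older tumors, with a median log2 fold change of 0.04, and 7 were lowest in tumor 102. Anapc7, a subunit of its scaffold arm, had 131, 61.3 and 62.2 CPM in older and 51.4, 35.1 and 37.6 CPM in younger tumors, 1.03 higher in older tumors on the log2 scale (standard error 0.36, adjusted p = 0.460 in edgeR), and here the value of tumor 102 was the highest. Its groups did not overlap, as for 6.51% of all genes, which had every older tumor above every younger one.

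Of 23 tested transcription regulators of the cell cycle, 8 were lower and 15 higher in older tumors by sign, with a median log2 fold change of 0.06. E2f6, a repressor of the E2F family, had 37.0, 35.3 and 39.9 CPM in older and 17.3, 24.5 and 19.4 CPM in younger tumors, so the groups did not overlap, and E2f6 was 0.87 higher in older tumors on the log2 scale (standard error 0.25, adjusted p = 0.359 in edgeR). Rbl2, p130, the pocket protein of the DREAM complex that represses mitotic genes in resting cells, had 142, 107 and 64.0 CPM in older and 54.2, 55.7 and 66.4 CPM in younger tumors, 0.83 higher in older tumors on the log2 scale (standard error 0.32, adjusted p = 0.506 in edgeR). Rbl2 was thus highest in tumor 102, and its groups overlapped. Rbl1, in the same list, was lowest in tumor 102, at 17.8 CPM against 41.1 to 81.2 CPM in the others. Of the 23 regulators, tumor 102 was lowest for 10 and highest for 2. Myb was at −1.05 (standard error 0.63) and Rb1, the retinoblastoma gene, at −0.72 (standard error 0.56). Rb1 stood at 422 CPM in younger tumor 158 and between 75.7 and 173 CPM in the other tumors.

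**Figure D5:**
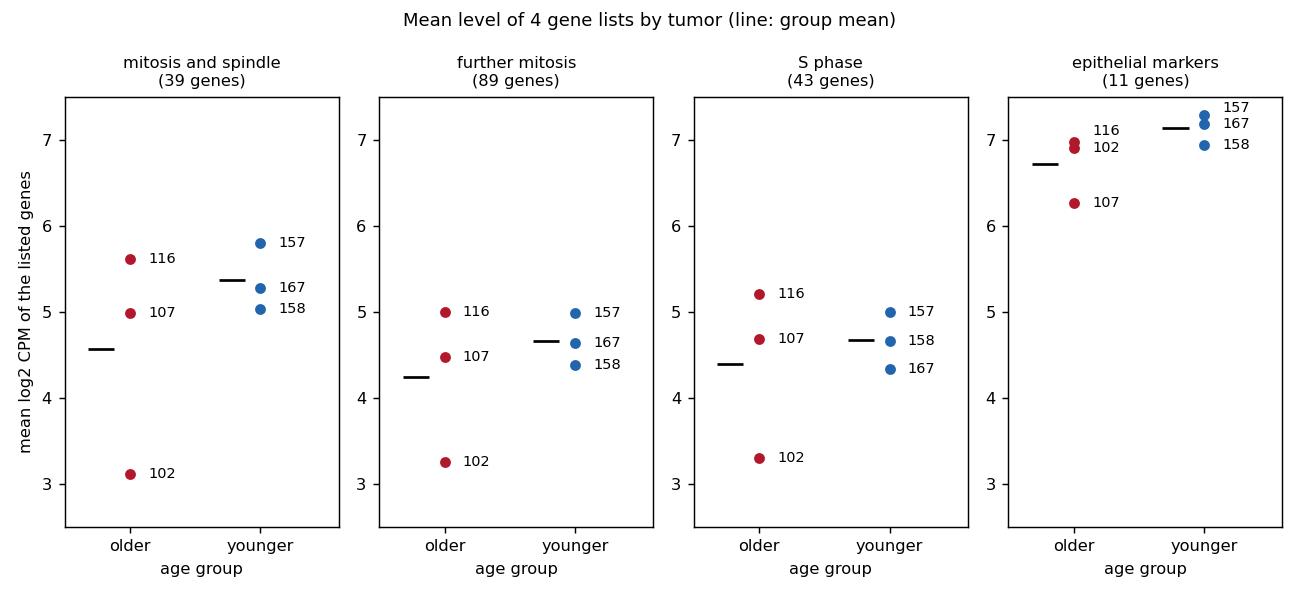
Each panel plots the mean log2 CPM of a gene list (y axis) in the 3 older (red) and 3 younger (blue) tumors, labelled by tumor, with a short line at each group's mean. Tumor 102 lies apart at 3.12, 3.26 and 3.30 in the mitosis and spindle, further mitosis and S phase panels, and within the range of the other tumors, at 6.91, for epithelial markers.

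Markers of the cell types in the tissue were read in the same libraries. The 11 epithelial markers, genes such as Epcam and Cdh1, summed to 1804 CPM in tumor 102 and to between 1684 and 2468 CPM over all 6 tumors, with Epcam and Cdh1 detected in each. These sums were 1804, 1684 and 1877 CPM in older tumors 102, 107 and 116. In younger tumors 157, 158 and 167 they were 2468, 2190 and 2330 CPM, so every older sum lay below every younger one. The epithelial score, the mean log2 CPM of the same markers, overlapped, with older tumor 116 at 6.97 and younger tumor 158 at 6.94. Of the 11 markers, 4 had every older tumor below every younger one, as did 5.58% of all genes. All 11 markers had a log2 fold change below 0, with a median of −0.37, and all 11 also without tumor 102, with a median of −0.34, and 0 of them passed the adjusted threshold. Their part in the lower mitotic levels of older tumors was not tested. The mitosis score minus the epithelial score was −3.79, −1.29 and −1.36 in older tumors 102, 107 and 116 and −1.49, −1.91 and −1.90 in younger tumors 157, 158 and 167. On this scale older tumors lay 0.38 lower with tumor 102 (a difference of −0.38) and 0.44 higher without it. Tumor 102 also had the highest summed level of fibroblast markers (1477 CPM, against 170.1 to 1142 in the others). The same held for adipocyte markers (700.0 CPM, against 81.6 to 444) and endothelial markers (444 CPM, against 84.0 to 372). By gene, tumor 102 was highest for 5 of 10 fibroblast, 5 of 5 tested adipocyte and 4 of 8 endothelial markers. Pecam1 gave 183 CPM of its endothelial sum and Lpl 517 CPM of its adipocyte sum. Macrophage markers summed to 379, 426 and 223 CPM in older and 171, 124 and 100.3 CPM in younger tumors. All older tumors thus lay above all younger ones in the sum of macrophage markers. Of the 9 tested, 4 had every older tumor above every younger one, against 6.51% of all genes. Tumor 102 was the lowest of the 6 tumors for 1 of them, C1qa at 19.2 CPM, and the highest for 3. T cell markers summed to 152 CPM in tumor 107 and 11.2 to 33.7 CPM in the other tumors. B cell markers were at 1.595 to 4.98 CPM in all, with Ms4a1 and Cd79b at 0 in every tumor, and skeletal muscle markers reached 287 CPM in tumor 107 and 10.8 to 35.0 CPM in the others. The caseins, milk proteins, summed to 157227 CPM in tumor 102 and ran from 5550 CPM in tumor 167 to 173216 CPM in tumor 158. The share of mitochondrial counts was 8.71% in tumor 102 and 4.95% to 8.46% in the others. The part of the other cell types in the low mitotic level of tumor 102 was not tested.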

How the data were processed

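Per gene and tumor, the authors deposited the raw read count from HTSeq 0.13.5, made after adapter trimming (Trimmomatic), alignment (STAR) and duplicate marking (Picard) (build mRatBN7.2, per the submitters' processing notes). The annotation release and the strand setting are not given in the sources used here. The protocol describes ribosomal RNA depletion and 150-base reads, and other label fields polyA RNA and 100 bases.

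Age groups were compared on the deposited counts by edgeR 4.0.16 under R 4.3.3 (filterByExpr by age group, TMM, quasi-likelihood test without covariates, Benjamini-Hochberg adjustment over all genes, threshold 0.05). Of 30562 rows, 4367 have no gene name and were left out of library sizes and tests. Standard errors were calculated back from the F statistic, and log2 CPM used a prior count of 2. Totals per tumor over named genes ran from 3394450 to 6383980 counts. Alternatives used DESeq2 1.42.0 and limma 3.58.1, other scalings and filters, and each tumor left out.

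The members and lists were chosen with earlier results of these data known. The rule that chose the members also asked for the comparison with and without tumor 102. Named members are Mki67, the 2 with the highest mean level in each role group, the 3 of smallest p per direction (0 were higher), those whose groups do not overlap, the 3 with the largest and the 3 with the smallest range, and any that failed the filter. In the other mitosis, regulator and S phase lists the rule names the 2 of smallest p per direction. The other members, Anapc7 and the remaining genes named were chosen after their values were seen. Intervals for tumor 102 are exact binomial (Clopper-Pearson) at 95%.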

Additional observations from a re-analysis of the deposited data

How the results depend on the processing

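With 0 members, 0 further mitosis genes and 0 S phase genes past the adjusted threshold in every setting run, the count of calls did not move. The settings were DESeq2's size factors, library totals, DESeq2's Wald test, limma-voom, all genes with at least 1 count, at least 10 counts in every tumor, omission of the 10 most abundant genes, rows without a name kept (chosen after seeing the data) and each tumor left out. Anln was the 1 member with an unadjusted p under 0.05, and this count was 0 with library totals and ranged from 0 to 4 when a tumor was left out: 0 without tumor 107 or 157, and 4 (Anln, Kif2c, Nuf2 and Ccna2) without tumor 116. The 1 member whose groups do not overlap became 0 with library totals, 2 with all genes of at least 1 count, and 1 to 15 when a tumor was left out, with 15 without tumor 116, 3 without tumor 158 and 2 without tumor 167. The share of all genes without overlap was not calculated in these settings, nor that with an unadjusted p under 0.05 without tumor 116. Groups of fewer tumors separate more easily, so these counts cannot be set against the background.

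The mitosis score difference, −0.80 with all tumors, lay between −1.32 (without tumor 116) and −0.077 (without tumor 102) when a tumor was left out. Tumor 102 thus moved it most, and little of it was left without that tumor. Leaving out the older tumor with the lowest score had to raise the older mean. The mitosis minus epithelial difference ranged from −0.81 to 0.443 and was above 0 without tumor 102. Without tumor 102, from 25 to 29 members were lower under the other scalings and filters, so members near 0 cross it there. The 29 came from the filter of at least 1 count, under which all 40 members were tested, Foxm1 included. Some members changed sign when a tumor was left out, with log2 fold changes that ranged for Aurka −0.40 to 0.21, Melk −1.08 to 0.013, Cdca8 −0.91 to 0.15, Ttk −0.78 to 0.33, Mad2l1 −0.87 to 0.25, Cenpf −1.13 to 0.039, Ndc80 −0.45 to 0.29, Nuf2 −1.44 to 0.036, Spc25 −0.80 to 0.33, Nusap1 −1.16 to 0.016, Cep55 −1.18 to 0.0045, Top2a −0.75 to 0.13. With all tumors kept, no member tested changed sign under another scaling, test or filter. The filter of at least 10 counts in every tumor left 32 members to test.

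No paired analysis was possible because each library is from a separate animal and the labels pair none of them. Among the tested members, depth most limits the values of Melk and Pttg1 in tumor 102, which rest on 2 and 3 reads. Cep55, Birc5, Ube2c, Spc25 and Mybl2 also had few reads there, at 4, 6, 7, 7 and 9. The S phase gene Ccne1 had 1 read in tumor 102.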
